A study of Homo sapiens with 6 samples.

Results

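Ultraconserved regions were examined as strand pairs, each region being represented by a + probe and a - probe. The array carried probes for 481 numbered regions, uc.1 to uc.483 with the numbers 11 and 32 absent. All regions named uc. were taken except 10 numbers (uc.38, uc.63, uc.73, uc.84 and 6 higher ones), which left 471 regions with 942 strand probes among 60639 target probes. The + probe of uc.5 was an outlier spot on the IL6 array, so 941 strand probes and 470 complete pairs were used. Each strand probe had 1 spot per array. RNA came from MDA-MB-231, an established human breast cancer cell line that lacks the hormone receptors and has a mesenchymal character. Cells received PBS, LPS, IL1b, TNFa, IL6 or TGFb for 24 h, with 1 array for each. LPS is bacterial lipopolysaccharide, IL1b and TNFa are inflammatory cytokines that activate NF-kB, IL6 signals through STAT3 and TGFb through SMAD proteins. The stated purpose was a screen for non-coding transcripts that answer to inflammation. With 1 array per group there is no replicate check and no p-value, all treatments share the PBS array, and precision is limited by how few arrays there are. Of 18 marker genes of breast, mesenchymal, blood, fibroblast and endothelial cells, 0 could be matched to a named probe, so the identity of the cells was not checked.

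Ultraconserved regions are stretches of the genome that are identical between human, mouse and rat. Part of them overlap exons of genes for RNA-binding and splicing proteins, and others lie in introns or far from genes, where many act as enhancers of developmental genes. Many are transcribed, often from only 1 strand, and such transcripts are altered in several cancers. The catalogue numbers them along the chromosomes, so that consecutive numbers can be neighbours in the genome or can lie far apart. The sign in a probe name gives the strand, but whether it names the strand of the transcript or that of the probe is not stated in the labels. Positions, host genes and sequences of the regions were not used here.

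A strand was taken as detected when its spot was well above background by the flag of the scanner software. Levels are log2 intensities, quantile normalized over the 6 arrays. The arrays differed in what the flag let through. Detected strand probes numbered 123 of 941 under PBS, 149 under LPS, 202 under IL1b, 162 under TNFa, 411 under IL6 and 307 under TGFb. These are shares of 13.1% to 43.7%, below the 33.2% to 68.4% of all target probes on the same arrays. Of 600 negative control spots, made to match no transcript, 0.5% passed with PBS, 1.83% to 2.33% on the LPS, IL1b and TNFa arrays, 12.8% with IL6 and 11.2% with TGFb. The lowest level that passed was 5.94 with LPS and 3.26 with IL6. When 5.94 was asked of all 6 arrays as a common limit, the detected strand probes numbered 123, 149, 148, 148, 159 and 170 in the same order, and 3 to 13 of 600 negative control spots passed. On quantile-normalized arrays such a limit lets the same share of all target probes pass by construction, here 40.7% on each treated array, so the near-equal counts under it are partly set by the scaling. IL6 and TGFb still had the most detected strands under it. Non-coding probes of the HOX clusters were detected in 39.6% of cases with PBS and 71.7% with IL6, and of the 20 probes of the 10 excluded regions 4 and 11 were detected.

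Most regions with any detected strand had only 1, but few strand probes passed at all. By the flag the - strand was detected no less often where the + strand was than where it was not. These shares were 17.2% and 13.3% with PBS and 43.5% and 43.3% with IL6. The counts below thus do not show a preference for 1 strand. With PBS, 48 regions had the + strand alone, 55 the - strand alone, 10 had both and 357 neither. With LPS these numbers were 59, 60, 15 and 336, and with TNFa 65, 61, 18 and 326. With IL1b they were 70, 70, 31 and 299. Neither sign prevailed on any of these 4 arrays. IL6 gave 117, 114, 90 and 149, and TGFb 101, 98, 54 and 217. Regions with both strands made up 8.85% of regions with a detected strand with PBS, 28.0% with IL6 and 21.3% with TGFb. Under the common limit the share with IL6 was 10.4% and with TGFb 9.68%, beside 8.85% with PBS, 11.2% with LPS, 13.8% with IL1b and 12.1% with TNFa. This fall is partly fixed by the limit, which lets through the same share of all target probes on each treated array. The larger shares under the flag stood on the arrays where more negative control spots passed, and the part of that background in the result was not tested.

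**Figure D1:**
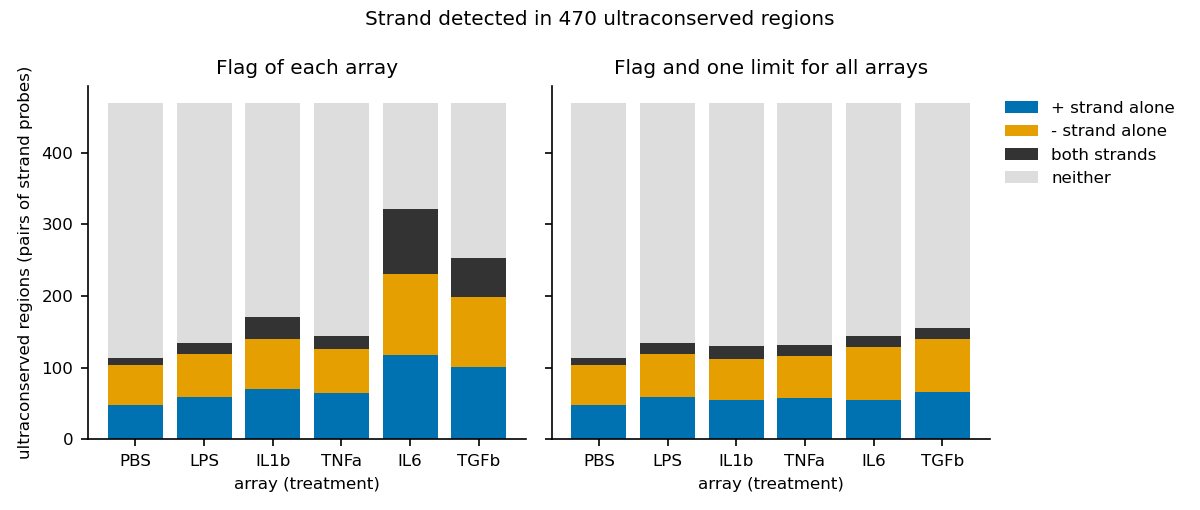
Number of regions (of 470) with the + strand alone, the - strand alone, both strands or neither detected, for each of the 6 arrays, by the flag of each array (left) and by the flag together with the common limit of 5.94 (right). The dark band of regions with both strands holds 90 regions with IL6 on the left and 15 on the right.

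By the flag, the - strand was detected more often where the + strand was, by the least with IL6. With PBS the - strand was detected in 17.2% of the 58 regions with a detected + strand and in 13.3% of the 412 without. The shares were 20.3% and 15.2% with LPS, 30.7% and 19.0% with IL1b, and 21.7% and 15.8% with TNFa. With IL6 they were 43.5% and 43.3%, and with TGFb 34.8% and 31.1%. Under the common limit the order turned with TGFb, at 18.5% and 19.0%, while IL6 had 21.4% and 18.5%. Neighbouring numbers gave a similar picture. With PBS a strand was detected in 16.9% of cases where the same strand of the preceding number was, and in 12.4% where it was not. For IL1b the shares were 27.3% and 19.7%, for TNFa 23.2% and 15.9%, and for LPS 20.1% and 15.0%. For IL6 they were 43.8% and 43.2%, and for TGFb 33.6% and 31.4%. Numbers lying further apart went both ways. With LPS they gave 19.0% and 15.6% at 20 apart, and 14.3% and 16.2% at 50 apart. With IL1b they gave 23.5% and 20.1% at 2 apart, and 17.7% and 22.6% at 3 apart. These shares are descriptions of 1 array each, without a test.

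Over all 6 arrays the regions fell into a small expressed set and a large remainder. Neither strand was detected on any array in 114 regions, and in 254 others a strand was detected on some arrays but none on all 6. At least 1 strand was detected on every array in 102 regions. In 50 of these the expressed strand stood alone, the + strand in 25 and the - strand in 25, with the opposite strand detected on no array. Another 43 had a strand on all arrays and the opposite strand on some, 19 with + and 24 with - as the constant strand. In 9 regions both strands were detected on all 6 arrays. Of the regions outside the expressed set, 164 had a detected strand only on the IL6 or TGFb array, 73 of them only on the IL6 array. Without the IL6 and TGFb arrays, 77 regions had 1 strand detected throughout and the other on none. Under the common limit there were 66 such regions, and 267 had no strand detected on any array.

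Among regions with 1 constant strand, the range of its level over the 6 arrays was 0.62 to 3.55 for + strands (median 1.54) and 0.36 to 3.67 for - strands (median 1.41). In 3 of 25 and 7 of 25 it stayed within 2-fold, 20% of the 50 together, beside 38.1% of the 19077 target probes detected on all 6 arrays. The median range was 1.51 over the 50 and 1.18 over those target probes. The steadiest were - strands, chosen after their values were seen. The level of uc.420- was 14.04 under PBS, 13.94 under LPS, 13.91 under IL1b, 14.03 under TNFa, 13.69 under IL6 and 13.84 under TGFb. The level of uc.50- was 9.88, 9.95, 9.81, 9.63, 9.74 and 10.03 in the same order. Both stayed within 1.32-fold over all arrays.

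Several constant strands were lower with IL6 and TGFb. The level of uc.91+ was 8.40 under PBS, 7.73 under LPS, 7.47 under IL1b, 7.27 under TNFa, 5.30 under IL6 and 4.85 under TGFb, so that IL6 and TGFb stood apart from the other 4 and PBS was highest. Its difference from PBS was -3.10 with IL6 and -3.55 with TGFb, and both low values lay under the common limit of 5.94. The level of uc.30+ was 9.36, 8.97, 8.22, 8.81, 7.08 and 6.25, again lowest with TGFb, and here all values lay above that limit. On the - strand, uc.163- was at 8.65, 8.11, 7.72, 7.99, 6.98 and 4.98, with TGFb 12.7-fold below PBS and under that limit. The level of uc.274- was 8.93 with PBS and 6.78 with IL6, a difference of -2.15, and its difference with TGFb was -2.11. Of the + strands uc.426+, uc.16+ and uc.271+ were also lowest with TGFb and highest with PBS. The TGFb value of uc.426+, 4.52, was under the common limit.

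Other constant strands were higher on the same arrays, or on 1 of them. The level of uc.427+ was 9.35 under PBS, 9.10 under LPS, 8.96 under IL1b, 9.29 under TNFa, 11.71 under IL6 and 11.13 under TGFb. LPS, IL1b and TNFa lay within 0.39 of PBS, and the difference was 2.36 with IL6 and 1.78 with TGFb. The level of uc.10- was 7.43, 7.56, 6.86, 7.15, 9.22 and 9.39, with the same split of arrays. With TGFb alone, uc.88- was higher by 1.62 and uc.162- by 1.21, and their differences with IL6 were -0.82 and -0.44. The - strand of uc.204 differed between IL6 and TGFb as well, with levels of 7.51 for PBS, 7.28 for LPS, 6.90 for IL1b, 8.42 for TNFa, 9.59 for IL6 and 6.44 for TGFb. The + strand of uc.150 did so the other way round, at 7.25, 6.62, 6.32, 6.73, 4.74 and 7.63, lowest with IL6 and highest with TGFb. Its IL6 value lay under the common limit of 5.94. On the quantile scale, 34 of the 50 constant strands were highest with IL6 or TGFb (68.0%) and 19 were lowest with IL1b. Among the 19077 target probes detected on all 6 arrays, 31.6% were highest with IL6 or TGFb and 13.9% lowest with IL1b.

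**Figure D2:**
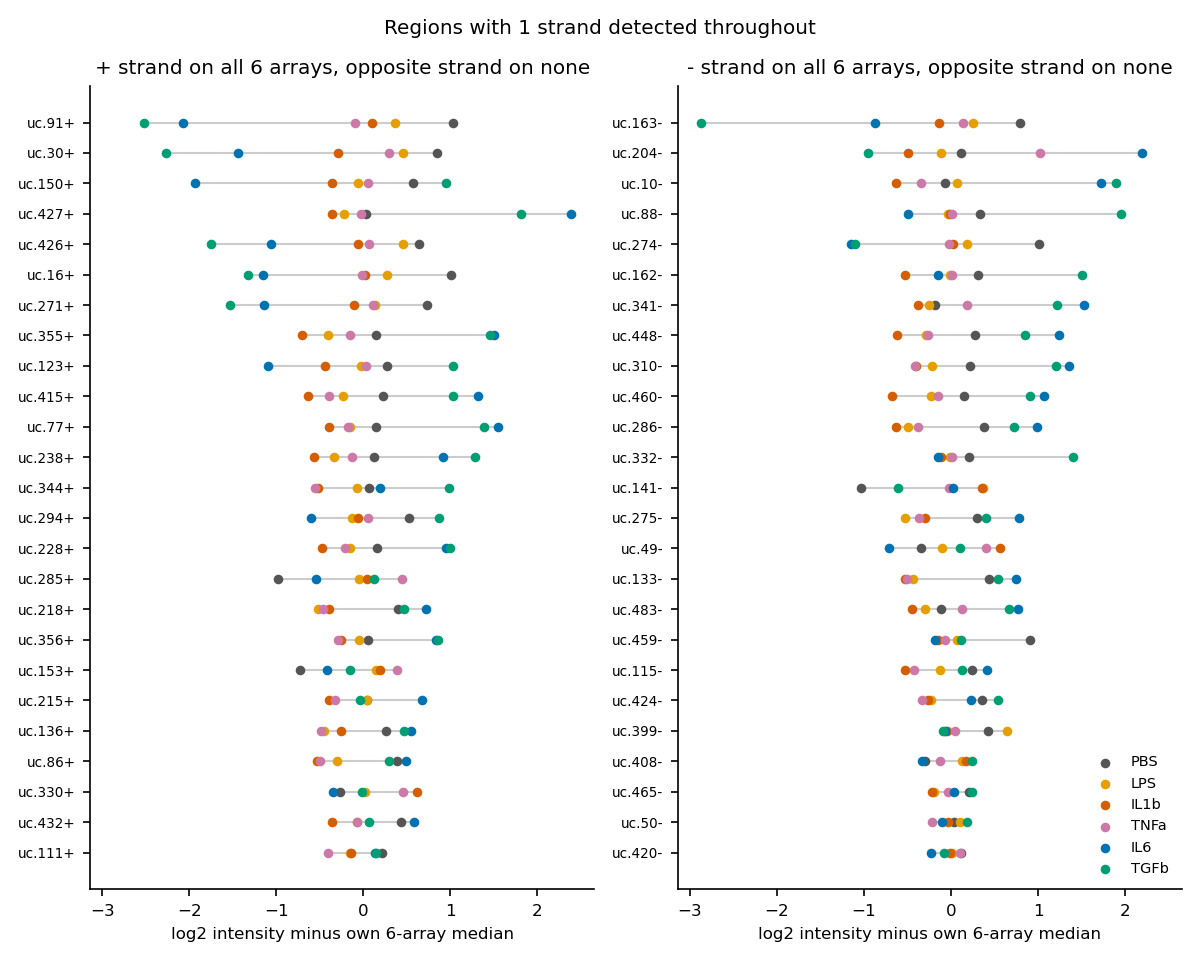
Level of the constant strand in the 50 regions with the opposite strand detected on no array, as log2 intensity minus the probe's own median over the 6 arrays, 1 point per array and a grey line over its range. At the top uc.91+ and uc.163- reach furthest down with TGFb, and at the bottom uc.420- spans 0.36.

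The 9 regions with both strands on all arrays were uc.18, uc.46, uc.48, uc.154, uc.246, uc.268, uc.293, uc.371 and uc.418. The strand with the wider range was + in 4 and - in 5. On the quantile scale the - strand of uc.46 was the steadiest of all, at 14.87 under PBS, 14.94 under LPS, 14.85 under IL1b, 14.95 under TNFa, 14.88 under IL6 and 14.80 under TGFb. The + strand of uc.46 was at 7.50, 7.30, 7.34, 7.18, 8.33 and 5.79, a range of 5.83-fold against 1.11-fold. Its value with TGFb lay under the common limit of 5.94. With signals scaled to the 75th percentile, uc.46- differed from PBS by -0.05 (LPS), -0.29 (IL1b), -0.17 (TNFa), -0.40 (IL6) and -0.46 (TGFb). On that scale uc.46+ differed by 1.23 with IL6 and -0.99 with TGFb, where the quantile scale gave 0.83 and -1.71. In uc.371 the strands kept closer together. Its + strand was at 7.09, 7.01, 6.68, 6.96, 7.71 and 7.15, and its - strand at 13.29, 12.97, 12.81, 13.06, 13.93 and 14.00. Both strands were lowest with IL1b, and they differed from PBS with IL6 by 0.61 and 0.64. With TGFb the differences were 0.06 and 0.72.

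In uc.18 the strands went apart. Its + strand was at 7.51 under PBS, 6.64 under LPS, 6.55 under IL1b, 6.67 under TNFa, 4.82 under IL6 and 4.82 under TGFb. Its - strand was at 10.41, 10.37, 9.73, 10.45, 11.87 and 11.71. The + strand was thus lowest and the - strand highest on the same 2 arrays, and the low + values lay under the common limit. In uc.293 the - strand was at 9.38, 8.31, 8.75, 9.36, 11.16 and 7.75, higher than PBS by 1.79 with IL6 and lower by 1.63 with TGFb. Its + strand was at 8.19, 7.25, 7.49, 7.39, 8.38 and 8.46, and differed from PBS by 0.19 and 0.27 with these stimuli. In uc.246 it was the + strand that differed between the inflammatory stimuli, at 7.66 with PBS, 8.70 with LPS and 6.76 and 6.63 with IL1b and TNFa, while its - strand lay between 8.45 and 9.86 on all arrays. In uc.154 the + strand stayed between 12.57 and 13.25, and the - strand was lowest with TGFb at 5.60, below its PBS level of 6.74. That TGFb value was under the common limit too. In uc.268 the - strand was at 9.60 with PBS and at 11.16, 11.14, 10.88, 10.76 and 9.72 on the treated arrays in the order LPS, IL1b, TNFa, IL6, TGFb. The + strand of uc.268 was highest with PBS, at 8.62 against 8.26, 8.36, 7.89, 7.82 and 7.68.

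**Figure D3:**
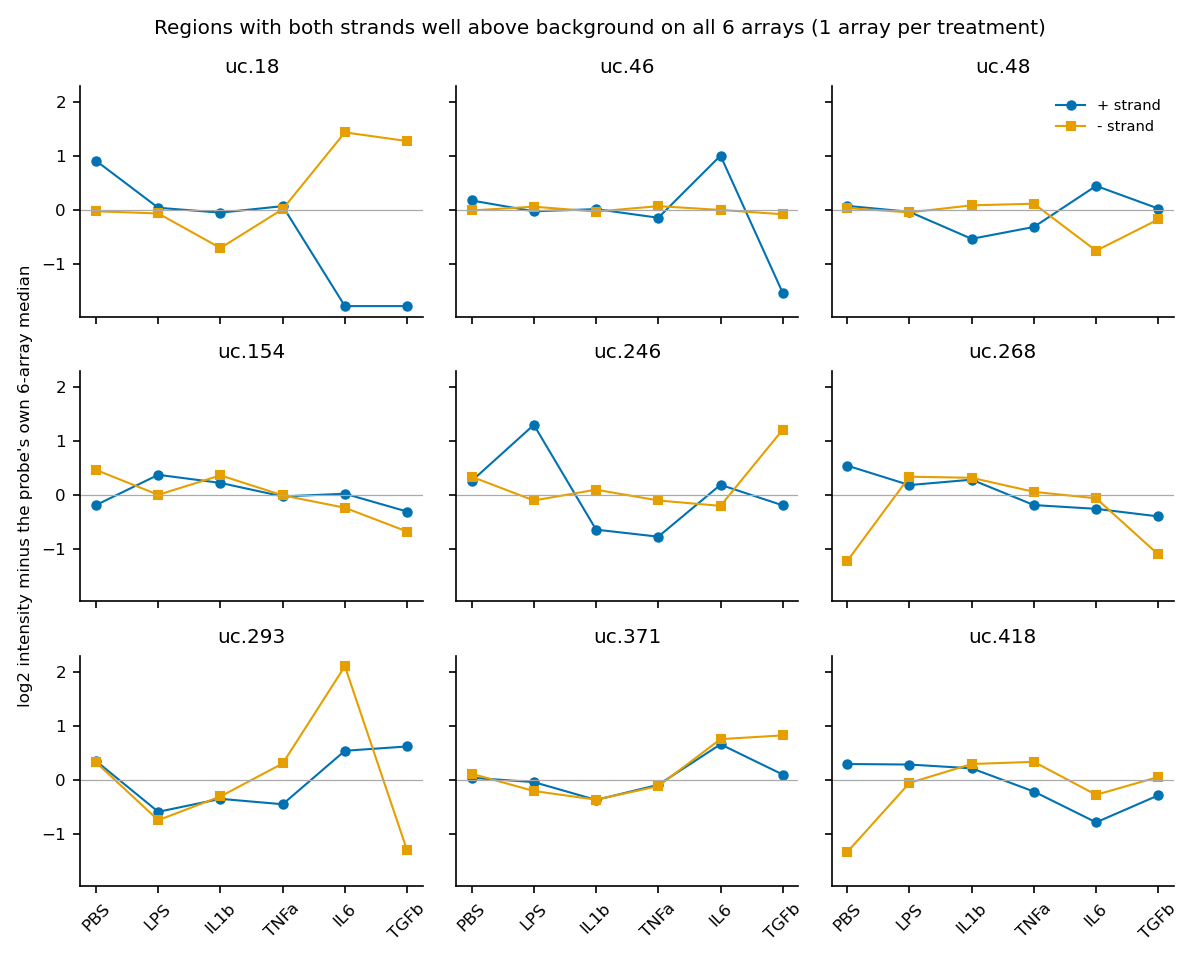
Level of the + strand (circles) and - strand (squares) in the 9 regions with both strands detected on all 6 arrays, as log2 intensity minus each probe's own 6-array median. Lines join the values of a probe and imply no order of treatments. In uc.18 the strands part with IL6 and TGFb, and in uc.371 they stay close on the first 5 arrays.

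In 20 regions the detected strand depended on the array, with + alone on some array and - alone on another. Under the common limit 10 regions did so. By the flag, uc.161, uc.210, uc.263 and uc.378 did so among the PBS, LPS, IL1b and TNFa arrays. The others needed a call on the IL6 or TGFb array, where 12.8% and 11.2% of negative control spots passed. Some of those calls were at low levels, such as uc.143+ at 3.57 with IL6. The probe uc.67+ was called at 5.20 with TGFb but not at 6.33 with PBS. The strand probe uc.263+ was detected with PBS and IL1b, at 7.12 and 6.09, and not with LPS, TNFa, IL6 or TGFb, where it lay at 3.04, 4.12, 3.17 and 3.60. Its partner uc.263- was detected on the 5 treated arrays, at 6.13, 6.32, 6.05, 6.97 and 7.57 in that order, and not with PBS, at 5.85. By the flag, PBS and LPS thus showed opposite strands of uc.263, with uc.263+ at least 2.27-fold higher with PBS than with LPS. For uc.263- the flag differed but the level hardly did, with a bound of 1.21-fold higher with LPS. Such a bound sets the brighter value against the higher of 2 values on the dim array, the probe's own and the lowest level that passed there. In uc.161 the + strand was detected with PBS at 7.36 and not with LPS at 4.65. Its - strand was detected with LPS at 7.61 and not with PBS at 5.44. For uc.161 the bounds were 2.68-fold lower for + and 4.53-fold higher for - with LPS. The probe uc.89+ was detected with TNFa only, at 8.87 against 2.93 to 3.14 on the other arrays, at least 20.2-fold above PBS, while uc.89- was detected with IL6 at 6.34 and TGFb at 5.98 only. These bounds are not strict, since uc.263- at 5.85 did not pass on the PBS array although other probes passed there from 4.54 up.

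Each stimulus was then set against PBS, counting strand probes well above background on both arrays with a difference of at least 2-fold. With LPS, 8 of 115 were higher and 3 lower, beside 6.87% higher and 5.22% lower among all target probes measured. With IL1b, 7 of 119 were higher and 11 lower (all target probes 9.43% and 9.62%), and with TNFa 9 of 115 were higher and 10 lower (9.06% and 8.92%). The members' shares were 6.96% and 2.61%, 5.88% and 9.24%, and 7.83% and 8.70%, near or under those of all target probes. With IL6, 18 of 121 were higher and 29 lower, 14.9% and 24.0% beside 9.64% and 20.4%. With TGFb, 18 of 118 were higher and 26 lower, 15.3% and 22.0% beside 10% and 18.9%. Of the lower strand probes, 19 of 29 with IL6 and 13 of 26 with TGFb lay under the common limit on the treated array. Under that limit the counts with IL6 were 18 higher and 10 lower of 102 (all target probes 10.4% and 14.0%), and with TGFb 18 higher and 13 lower of 105 (10.7% and 13.9%).

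The balance of higher and lower depended on the scaling. With signals scaled to the 75th percentile of probes detected on all 6 arrays, the counts were 7 higher and 13 lower with LPS, 8 and 23 with IL1b, 8 and 14 with TNFa, 32 and 25 with IL6, and 30 and 18 with TGFb. Relative to quantile normalization, that scaling moved the difference of a target probe by a median of 0.33 with IL6 and 0.37 with TGFb, and of -0.09 to -0.04 with the others. The median difference of all measured target probes under it was 0.07 with IL6 and 0.16 with TGFb. With cyclic loess, IL1b had 8 higher and 21 lower. Shares of all target probes past 2-fold were not counted under either scaling. These counts therefore do not show whether the whole array moved likewise. On the quantile scale the median difference of the measured strand probes was -0.36 for LPS, -0.60 for IL1b, -0.48 for TNFa, 0.05 for IL6 and 0.07 for TGFb. For all target probes it was -0.15, -0.24, -0.21, -0.11 and -0.06. Split by strand, by the flag, IL6 gave 6 higher and 16 lower of 56 + strands and 12 and 13 of 65 - strands. TGFb gave 7 and 15 of 56 and 11 and 11 of 62. Under the common limit, IL6 gave 6 higher and 5 lower of 45 + strands (13.3% and 11.1%). For - strands it gave 12 and 5 of 57 (21.1% and 8.77%). With TGFb the counts under it were 7 and 7 of 48 + strands (14.6% each) and 11 and 6 of 57 - strands (19.3% and 10.5%). Among all target probes the shares under it were 10.4% and 14.0% with IL6, and 10.7% and 13.9% with TGFb. The surplus of lower + strands by the flag thus lay mostly in values under that limit.

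Among the 111 strand probes detected on all 6 arrays, 50 stayed within 2-fold of PBS with every stimulus (45%) and 61 did not, beside 52% of the 19077 target probes detected likewise that stayed. Of the 61, 36 passed 2-fold only with IL6 or TGFb (32.4% of the 111, beside 23.8% of the target probes), 9 only with LPS, IL1b or TNFa (8.11%, beside 11%), and 16 in both sets (14.4%, beside 13.1%). Between arrays, the LPS and IL1b arrays were at least 2-fold apart in 4 of the 111 (3.60%, beside 0.739% of the target probes detected on all 6 arrays). LPS and TNFa were so in 5 (4.50%, beside 1.57%), and TNFa and IL1b in 1 (0.901%, beside 1.05%). IL6 and TGFb were so in 15 (13.5%, beside 8.48%), and LPS and TGFb in 54 (48.6%, beside 31.5%). The robust SD of the differences was 0.24 between LPS and IL1b and 1.32 between LPS and TGFb. The LPS, IL1b and TNFa arrays were thus closer to each other in these strands than to the IL6 or TGFb array. With LPS against IL1b or TNFa, a larger share of these strands than of target probes was 2-fold apart. All 3 are set against the same PBS array. At least 2-fold higher with each of the 5 stimuli were uc.418- and uc.419-, and at least 2-fold lower with each was uc.155-. How many of the 19077 target probes did so was not counted. All 5 differences of a probe use its 1 PBS value, so they are not 5 separate observations. The - strand of uc.155 was at 7.52 under PBS, 6.43 under LPS, 6.23 under IL1b, 6.37 under TNFa, 4.56 under IL6 and 4.61 under TGFb. The last 2 lay under the common limit of 5.94.

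With LPS the differences measured on both arrays lay between -1.09 and 1.58. The lowest with IL1b were -2.19 for uc.161+ and -1.86 for uc.298-, both under the common limit on that array at 5.17 and 5.50, and the lowest with TNFa was -1.60 for uc.85+. The highest with IL1b was 1.68 for uc.419- and with TNFa 1.66 for uc.418-. Other strands shared a pattern over these 3 stimuli. The level of uc.75- was 7.23 under PBS, 8.81 under LPS, 8.60 under IL1b, 8.71 under TNFa, 7.68 under IL6 and 6.91 under TGFb, so that the 3 arrays of LPS, IL1b and TNFa stood above the other 3. The level of uc.141- was 11.31, 12.72, 12.71, 12.33, 12.37 and 11.74, lowest with PBS. On the + strand uc.285+ was at 7.90, 8.84, 8.93, 9.33, 8.34 and 9.01, also lowest with PBS. The - strand of uc.177 was lower with LPS by 1.09 and with TNFa by 1.20, and its differences with IL6 and TGFb were 0.31 and 0.11. Under IL6 the lowest differences were -3.23 for uc.85+, -3.15 for uc.2-, -3.10 for uc.91+ and -2.96 for uc.155-, and under TGFb -3.74 for uc.308-, -3.67 for uc.163-, -3.55 for uc.91+ and -3.19 for uc.117+. All of these treated values lay between 3.78 and 5.30, under the common limit.

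Whether the strands of a region moved together could be asked in few regions, since both strands had to be measured on both arrays. This held for 9 regions with LPS, IL1b and TNFa and for 10 with IL6 and TGFb. In 0 of them were both strands at least 2-fold off PBS in the same direction, with any stimulus. They were 2-fold off in opposite directions in 3 regions with IL6 (uc.2, uc.18 and uc.418) and in 1 with TGFb (uc.18), and in 0 with LPS, IL1b and TNFa. At least 2-fold on 1 strand only were 4 regions for LPS, 2 for IL1b, 3 for TNFa, 2 for IL6 and 5 for TGFb. The signs of the differences matched in 4 of 9, 5 of 9, 3 of 9, 4 of 10 and 4 of 10 regions. Across regions the strand differences correlated at -0.04 (LPS), 0.44 (IL1b), -0.20 (TNFa), -0.61 (IL6) and -0.56 (TGFb), where both strands of a point share the 2 arrays. As deviations from each probe's own median over the arrays, with no reference to PBS, the strands matched in sign in 4 to 6 of 9 regions on each array.

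The opposite differences rested on a few regions and partly on low values. In uc.18 the differences with IL6 were -2.69 for + and 1.46 for -, and with TGFb -2.69 and 1.31. In uc.2 they were 1.11 and -3.15 with IL6. The + strand of uc.2 was at 7.50 with PBS and 8.61 with IL6, and its - strand at 6.93 and 3.78. In uc.418 they were -1.08 and 1.06 with IL6. Under the common limit uc.18 and uc.2 drop out and 1 opposite region was left with IL6 and 0 with TGFb. With signals scaled to the 75th percentile the IL6 difference of uc.418+ was -0.54.

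**Figure D4:**
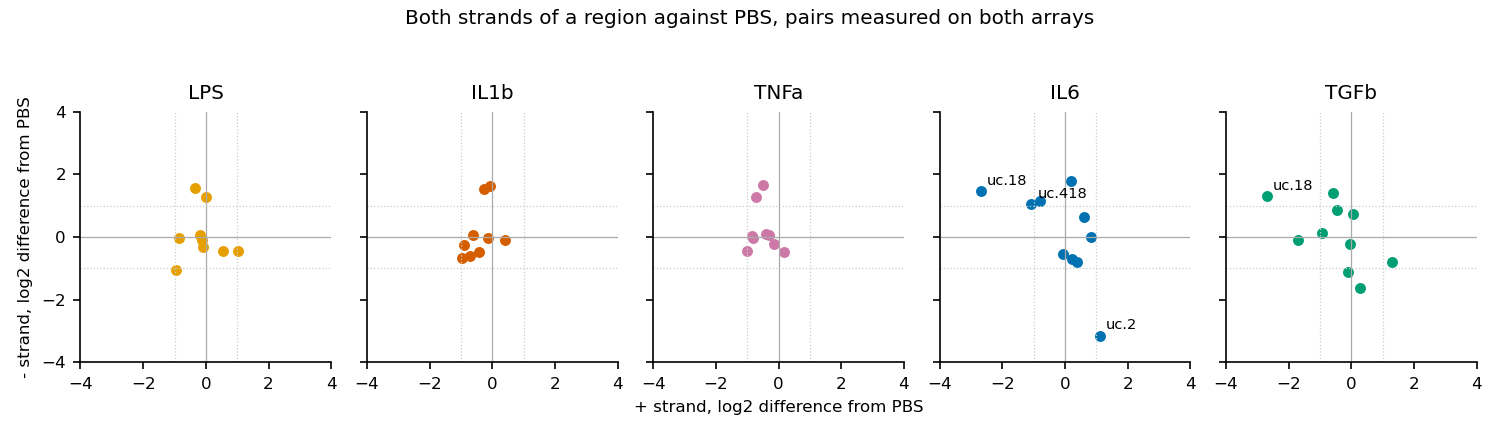
Difference from PBS (log2) of the + strand (horizontal) and the - strand (vertical) in regions with both strands measured on both arrays, 9 or 10 points per stimulus, with dotted lines at 2-fold. The upper right and lower left corners beyond both dotted lines are empty for all 5 stimuli, and uc.18 lies in the upper left with IL6 and TGFb.

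Consecutive numbers differed from PBS alike in some cases and not in others. With the same strand of both numbers measured on both arrays, 19 or 20 neighbour pairs were available per stimulus. Their differences correlated at 0.65 with LPS, 0.67 with IL1b and 0.66 with TNFa, and at 0.13 with IL6 and -0.03 with TGFb. Pairs of numbers lying 2, 3, 5, 10, 20 or 50 apart, 11 to 16 per distance, gave -0.09 to 0.56 (LPS), -0.11 to 0.48 (IL1b), -0.27 to 0.64 (TNFa), -0.27 to 0.20 (IL6) and -0.29 to 0.21 (TGFb). The highest correlation stood at consecutive numbers for LPS, IL1b and TNFa, by a margin of only 0.02 with TNFa. The share of pairs with matching signs was not highest there, at 73.7%, 80% and 84.2%, where other distances reached 83.3%, 100% and 85.7%. All points share the same pair of arrays and several share a region, so these are descriptions of few points. Among them, uc.418- and uc.419- differed from PBS by 1.28 and 1.26 (LPS), 1.63 and 1.68 (IL1b) and 1.66 and 1.54 (TNFa). With LPS and TNFa no other pair had both neighbours at least 2-fold off PBS. Correlations without this pair were not computed, so how far they rest on it is not known. Both neighbours were at least 2-fold off PBS the same way in 1 pair for LPS, 2 for IL1b, 1 for TNFa, 3 for IL6 and 2 for TGFb.

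The pair uc.418- and uc.419- was among these with all 5 stimuli. The level of uc.418- was 9.27 under PBS, 10.55 under LPS, 10.90 under IL1b, 10.94 under TNFa, 10.33 under IL6 and 10.66 under TGFb. The level of uc.419- was 8.80, 10.05, 10.48, 10.34, 9.99 and 10.36. Both were lowest with PBS, and their differences from PBS were never more than 0.17 apart. The pair belonged to the longest run of consecutive numbers with a strand detected on all arrays, uc.417 to uc.420, and the rest of the run did not follow it. In the same run uc.418+ was at 7.52, 7.51, 7.44, 7.01, 6.44 and 6.94, highest with PBS. The level of uc.417+ was 7.01, 7.47, 6.31, 5.76, 4.80 and 5.33, and uc.420- stayed within 1.28-fold. The values of uc.417+ with TNFa, IL6 and TGFb were under the common limit. The partner strand uc.419+, not well above background with PBS at 5.56, was at 6.41, 5.80, 6.54, 8.72 and 7.96 on the treated arrays, highest with IL6. These partner strands were chosen after their values were seen.

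Of 34 combinations of consecutive numbers with both strand probes detected on all 6 arrays, 19 had the same strand and 15 opposite strands. The largest gap between their differences over the 5 stimuli had a median of 1.13 for the same strand and 2.09 for opposite strands. It stayed under 1 in 9 of 19 and 2 of 15. The differences of both probes had matching signs with each of the 5 stimuli in 4 of 19 and 1 of 15. Besides uc.418- and uc.419-, the 4 were uc.154- with uc.155-, uc.355+ with uc.356+, and uc.362- with uc.363-, named here after their values were seen. The level of uc.362- was 7.44 under PBS, 6.88 under LPS, 6.83 under IL1b, 6.95 under TNFa, 8.37 under IL6 and 8.27 under TGFb. The level of uc.363- was 8.47, 7.92, 7.80, 7.79, 9.30 and 9.47. The differences of this pair were at most 0.19 apart, negative with LPS, IL1b and TNFa and positive with IL6 and TGFb, and with a largest size of 1.00, for uc.363- with TGFb.

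Other neighbours parted. The difference of uc.426+ was -1.70 with IL6 and -2.38 with TGFb, where uc.427+ was at 2.36 and 1.78. With TGFb, uc.162- was at 1.21 and uc.163- at -3.67. The low values of uc.426+ and uc.163- on these arrays, 5.20, 4.52 and 4.98, were under the common limit. Between uc.419- and uc.420- the largest gap was 1.81, since uc.420- was within 0.36 of PBS on every array.

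**Figure D5:**
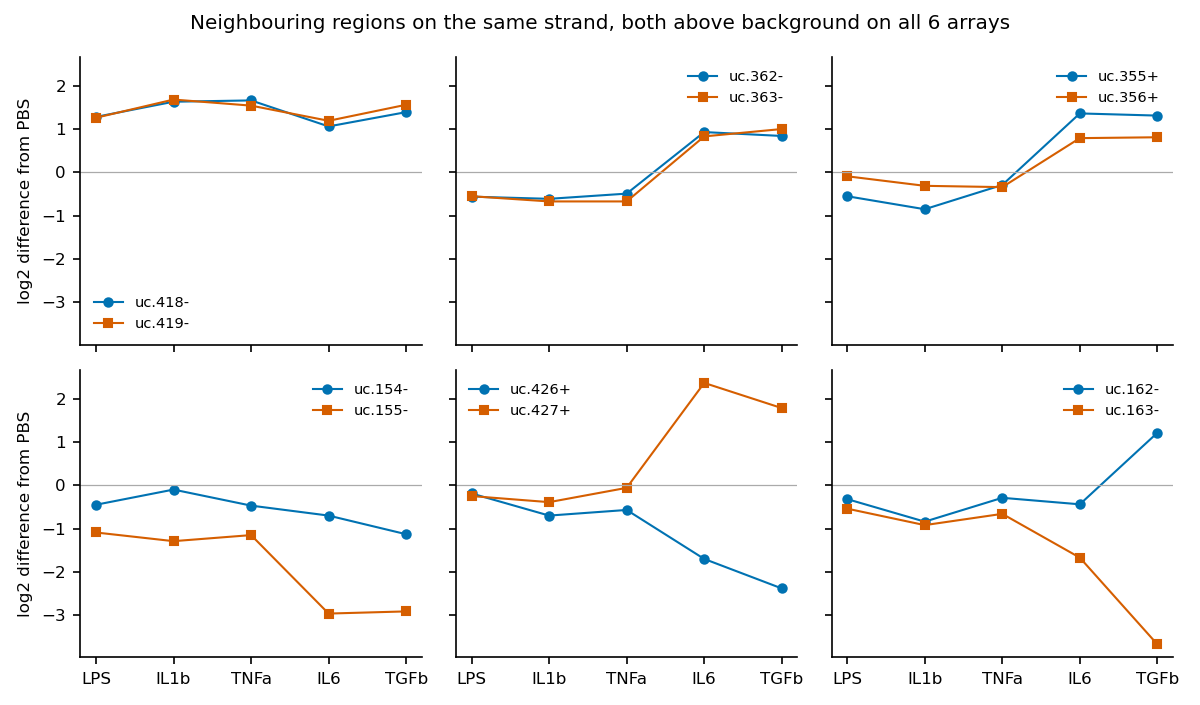
Difference from PBS (log2) for 6 pairs of consecutive regions on the same strand, both detected on all 6 arrays, with circles for the lower and squares for the higher number. Lines join the values of a probe and imply no order of treatments. The upper row shows pairs that ran alike, uc.418- and uc.419- never more than 0.17 apart, and the lower row pairs that differed in size or direction.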

How the data were processed

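The labels describe an Arraystar array in NimbleGen format, whereas the deposited files have the columns of 1-colour Agilent Feature Extraction output; the files were followed. The deposited intensity of each spot is the processed signal of the scanner software, per the file headers, and the deposited flags of each spot are its other values. Log2 values in a series table, also deposited by the authors, served as an alternative. The submitters' processing notes name RMA. For detected strand probes the table lay within 0.00399 of the values used here.

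Control spots and feature outliers were left out, repeat spots were averaged as log2, and 60596 of 60639 target probes were quantile normalized (limma 3.58.1, R 4.3.3). A strand was detected when gIsWellAboveBG was set. Levels of different probes were not ranked against each other. No spot was saturated (0 on each array). Alternatives were cyclic loess (span 0.7, 3 iterations), 75th percentile scaling, a floor, a common limit, other folds and another control; array omissions were chosen with the data in view. The members and lists were chosen with earlier results of these data known. Named members were the largest ranges among pairs with constant strands, the largest differences per stimulus, strand pairs and neighbours past 2-fold, and regions that switched strand; part are given, and other members are named because of their values. The counting rule was tested on simulated data with a robust SD of 0.22, that of target probes between LPS and IL1b. Against PBS it was 0.68 to 0.90. No background or flag was simulated, so the test does not show how often 2-fold calls here are false.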

Additional observations from a re-analysis of the deposited data

How the results depend on the processing

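No paired analysis was possible because each group had 1 array. Counts are given in the order LPS, IL1b, TNFa, IL6 and TGFb where all 5 are listed. Counts that moved by over 1.5 times are given. For differences from PBS, shares of all target probes were counted only on the quantile scale at 2-fold, by the flag and under the common limit. The other counts below are of strand probes alone and do not show whether the whole array moved likewise. The authors' table moved no count in this way, but it lay within 0.00399 of the values used, so it is no separate check. Keeping outlier spots was tried on 14 detection counts only, brought back 1 strand probe (uc.5+), and moved none of them. No named difference past 2-fold changed sign with cyclic loess or 75th percentile scaling, nor with that table. Asking for the common limit gave 18 regions with both strands under IL1b, 15 under IL6 and 15 under TGFb, and 129 with 1 strand under IL6. It left 10 lower strand probes for IL6 and 13 for TGFb, 1 and 0 regions with opposite strands, and 1 neighbour pair each for IL1b and TGFb. Taking the array median as the limit gave 170 regions with 1 strand under PBS, and 38, 36 and 37 with both strands under PBS, LPS and IL6. Without the IL6 and TGFb arrays 77 regions had 1 constant strand, and without the PBS array 14 had both strands throughout.

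Cyclic loess gave 5 lower strand probes for LPS and 21 for IL1b, 1 region with both strands the same way for LPS and 2 opposite for TGFb. Scaling to the 75th percentile gave 13 lower for LPS, 23 lower for IL1b, 32 higher for IL6 and 30 higher for TGFb, and 1 region with both strands the same way for LPS. With it, 122 of 378 differences of the named strand probes moved by more than 0.22, and with cyclic loess 14.

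A floor in place of the flag gave 52, 40, 45, 85 and 92 higher and 54, 61, 64, 92 and 92 lower strand probes. It gave 3, 3, 10 and 9 regions with the strands the same way for IL1b, TNFa, IL6 and TGFb, 2, 5, 4, 9 and 14 opposite, and 7, 10, 7, 13 and 18 neighbour pairs. These include values that were not well above background.

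At 1.5-fold, higher strand probes numbered 14 for LPS, 13 for IL1b, 37 for IL6 and 32 for TGFb, and lower ones 30, 62 and 47 for LPS, IL1b and TNFa. Strands went the same way in 1, 2 and 1 regions for LPS, IL1b and IL6 and opposite ways in 1 for TNFa and 2 for TGFb, with 4, 8, 3, 6 and 5 neighbour pairs. At 3-fold, 0, 2, 1, 6 and 4 were higher, and 0, 2 and 1 lower for LPS, IL1b and TNFa. Opposite strands numbered 0 for IL6 and for TGFb, and neighbour pairs 0, 1, 0, 0 and 0.

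When each array was set against the median of the remaining 5, 4, 4, 38 and 39 were higher for IL1b, TNFa, IL6 and TGFb and 6 and 1 lower for IL1b and TNFa. Opposite strands were seen in 1 region for IL6 and the same direction in 1 for TGFb, and neighbour pairs numbered 0 for LPS and TNFa. The cause of these moves was not tested. Low signal over background limits the strand pairs to 9 or 10 regions, and 1 array per group leaves every difference without an error.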
